A study of Mus musculus with 14 samples.

Results

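The 82 genes described here were selected on the raw counts of a single library. Each had 500 or more counts in control replicate 1 and 20 or fewer in each of the other 13 libraries, out of 23282 genes in the table. Together they carried 474303 of the 12029801 counts of control replicate 1 (3.94%, Wilson 95% interval 3.93 to 3.95%) and 442 counts in the other 13 libraries combined. Because these counts chose the members, their levels in control replicate 1 are given as a description with no test. Many members encode proteins that the epididymal duct secretes, led by cystatins, beta-defensins and inhibitors of serine proteases. Of the epididymis markers given for these genes, Crisp1 (5194 counts in the same library) was itself a member, while Lcn5 (121073 counts) was not.

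The libraries were made from epididymal white adipose tissue (eWAT) of wild-type male C57BL/6J mice and sequenced near the 3′ end of each transcript (QuantSeq). The control group received a normal diet and the Western diet (WD) group a fat-rich diet with cholesterol, both for 20 weeks. Batch 1 held 4 control libraries (replicates 1 to 4) and 5 WD libraries, and batch 2 held 5 control libraries (replicates 5 to 9), 14 in all. No group carried an engineered allele or a drug, and the labels give neither the age at collection nor how the fat was dissected. Total counts were 10278970 to 13712254 per library, and 3 counts, the floor used here, stood for 0.219 to 0.292 CPM (counts scaled to a library total of 1000000). Intervals on shares cover counting error only, since copies made by PCR are counted as reads. A QuantSeq count does not grow with transcript length, and counts were therefore compared between genes without a length correction. Control replicate 1 stood apart from the other libraries by the members themselves, and control replicate 4 had the fewest genes detected (7999 against 10903 to 13780).

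The epididymis is the coiled duct in which sperm mature after leaving the testis. Its principal cells secrete proteins into the lumen under androgen control, in a programme that changes from the initial segment through the caput (head) to the cauda (tail). Lipocalins carry small hydrophobic molecules, beta-defensins are small cationic cysteine-rich peptides, CRISP proteins bind sperm, and Kazal, Kunitz and WAP proteins and serpins inhibit proteases. Clear cells acidify the lumen with a proton pump, and basal cells lie under the epithelium. The fat pad sampled here takes its name from the epididymis, to which it is attached.

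Promoters of 4 members are shown as examples, since androgen is a known regulator of the duct. Those of Defb48, Defb15 and Crisp1 hold both sequences marked below and that of Lcn8 neither, so they do not represent the members. Being high together in a single library does not show shared regulation. Each run covers 250 bases before to 50 bases after the RefSeq start site (GRCm38.p6, sense strand, 5′ to 3′). Capitals mark AGAACA, the hexamer at the core of the androgen receptor's motif, or its reverse TGTTCT, and TATAAA, the TATA box, or its reverse.
Defb48 (chr14:62984461-62984760, minus strand): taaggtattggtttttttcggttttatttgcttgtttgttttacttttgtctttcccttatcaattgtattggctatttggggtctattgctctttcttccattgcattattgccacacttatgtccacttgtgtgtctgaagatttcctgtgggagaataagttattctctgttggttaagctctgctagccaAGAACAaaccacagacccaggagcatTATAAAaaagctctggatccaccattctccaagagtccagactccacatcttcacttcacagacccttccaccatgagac
Defb15 (chr8:21932661-21932960, minus strand): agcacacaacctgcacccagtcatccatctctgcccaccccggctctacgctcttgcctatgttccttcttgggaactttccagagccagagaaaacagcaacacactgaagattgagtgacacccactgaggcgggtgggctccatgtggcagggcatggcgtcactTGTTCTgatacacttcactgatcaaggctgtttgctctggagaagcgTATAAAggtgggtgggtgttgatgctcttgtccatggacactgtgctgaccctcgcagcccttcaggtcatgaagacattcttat
Crisp1 (chr17:40319158-40319457, minus strand): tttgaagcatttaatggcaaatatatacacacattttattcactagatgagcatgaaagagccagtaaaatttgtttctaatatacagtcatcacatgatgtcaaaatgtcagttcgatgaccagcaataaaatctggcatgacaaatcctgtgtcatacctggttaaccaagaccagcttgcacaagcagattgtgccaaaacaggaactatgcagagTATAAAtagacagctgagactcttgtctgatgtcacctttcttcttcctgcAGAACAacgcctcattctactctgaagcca
Lcn8 (chr2:25652868-25653167, plus strand): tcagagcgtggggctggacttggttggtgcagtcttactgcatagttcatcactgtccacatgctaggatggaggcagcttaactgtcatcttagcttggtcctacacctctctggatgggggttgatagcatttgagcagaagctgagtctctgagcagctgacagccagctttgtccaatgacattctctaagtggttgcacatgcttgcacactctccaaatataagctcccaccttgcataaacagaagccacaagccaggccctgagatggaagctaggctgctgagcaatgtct

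A RefSeq promoter was matched by symbol to 56 of the 82 members and to 17217 genes of the table. AGAACA on either strand was found for 27 of the 56 members (48.2%) and for 18.8% of all matched genes. At least 2 copies were found for 4 members (7.14%) and for 2.46% of all genes. The members' promoters had a median GC content of 51.2% and those of all genes 56.3%. Among promoters of 45 to 55% GC the shares were 36.4% of 33 members and 25.6% of 4938 genes. An inverted pair of the hexamer spaced by 3 bases, the layout of a full androgen response element, was found for 0 members and for 2 genes in the table. TATAAA on either strand was found for 8 members (14.3%) and for 14.2% of all genes, and in Defb48, Defb15 and Crisp1 it lay at positions -30, -35 and -31 from the start site. TATAAA starting 40 to 20 bases before the start site was found in only 4 promoters of members, these 3 included. AGAACA or its reverse lay at position -56 in Defb48, at -82 in Defb15 and at 20, after the start site, in Crisp1. The Lcn8 window held neither sequence. Neighbouring members can share sequence, no test was made, and a match describes letters in this window without showing that a factor binds there.

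The member counts were concentrated in few genes. The 5 highest members held 39.1% of the 474303 counts and the 10 highest 55.7%. Of the 82 genes, 13 had 10000 counts or more, 46 had 1000 to 9999 and 23 had 500 to 999, with a median of 2446.5. In the other libraries 44 members were at 0 in all 13, 17 had a highest count of 1 to 3, and 21 exceeded 3 in at least 1 library. The lowest members were Bglap3 (503 counts), of the osteocalcin family, 9230105E05Rik (507) and Ros1 (511), a receptor tyrosine kinase needed for the initial segment to form. Just under the threshold lay Arnt2 (497), Hrasls5 (494), Ptpn5 (493), Elovl2 (491) and 1700012A03Rik (490).

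**Figure D1:**
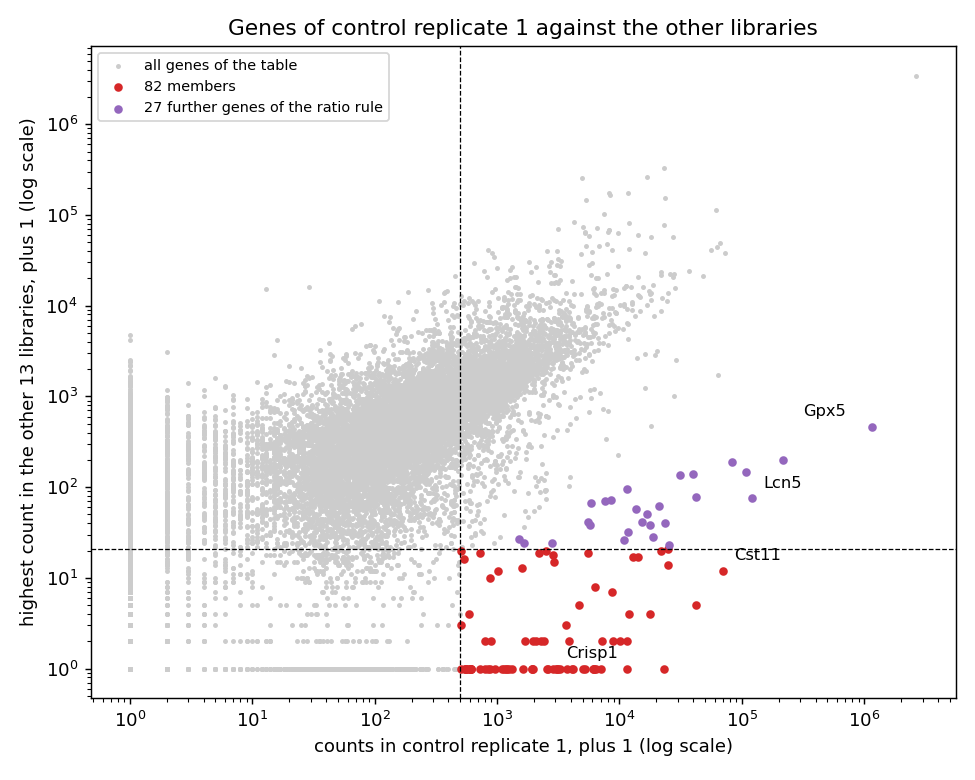
Each point is a gene, with its count plus 1 in control replicate 1 on the horizontal log axis and its highest count plus 1 among the other 13 libraries on the vertical log axis. Dashed lines mark 500 and 20 counts, red points are the 82 members, and purple points are the 27 other genes whose count in control replicate 1 is at least 50 times the highest of the rest, among them Gpx5 and Lcn5.

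Cystatins take their name from the inhibition of cysteine proteases, an activity not measured here for the members. Of the 9 cystatin genes in the table, 2 were members. Cst11, of the epididymal CRES group of cystatins, was the highest member with 70715 counts in control replicate 1. In the other libraries Cst11 had 11 counts in WD replicate 1, 11 in control replicate 9, 7 in control replicate 3, 3 in control replicate 6, 2 in control replicate 7 and 0 in the remaining 8. Cst8, the founding gene of the CRES group, had 24724 counts in control replicate 1, then 13 in control replicate 7, 10 in control replicate 3, 4 in control replicate 9 and 0 in the other 10. The pair held 95439 counts, 20.1% of all member counts, and lay in a single cluster of chromosome 2 (chr2:148768618-148805584). Cst12 of the same cluster had 17912 counts in control replicate 1 and up to 37 elsewhere, which kept it out of the members.

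Beta-defensins supplied the most members of any family, 14 of the 45 in the table, with 98578 counts (20.8% of member counts). Defb47 had 25114 counts in control replicate 1, 20 in WD replicate 1, 8 in control replicate 3, 1 in control replicate 6 and 0 in the other 10. Defb30 had 23145 counts and Defb48 had 11578, and both were at 0 in each of the other 13 libraries. These 3 genes lay within 60.3 kb of chromosome 14 (chr14:62977524-63037846). Defb15 of chromosome 8 had 10115 counts in control replicate 1 and a single count elsewhere, in WD replicate 5. Of the 45 defensin genes, 13 were at 0 in control replicate 1, and these 13 were at 0 in all 14 libraries. A further 11 had 1 to 499 counts, so the counts were carried by part of the family.

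Protease inhibitors followed with 12 members of 101 genes and 90080 counts (18.99%). Spink8, a Kazal-type inhibitor, had 41937 counts in control replicate 1, 4 in control replicate 6 and 0 in the other 12. Spink5, which inhibits kallikreins in skin, had 21809 counts in control replicate 1, 19 in WD replicate 3, 5 in control replicate 5, 4 in WD replicate 2, 1 in WD replicate 1 and 1 in control replicate 6. Spink11 had 7026 counts and was at 0 elsewhere. The largest physical cluster of members was made of this class, with 8 genes of the WAP and Kunitz groups within 503.6 kb of chromosome 2 (chr2:164214454-164718068). Of the 28 genes in that interval, 18 had their highest count in control replicate 1. The 18 include the 8 members, which the rule itself made highest there, and the share over all genes was not computed. Nothing is read from the 18.

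**Figure D2:**
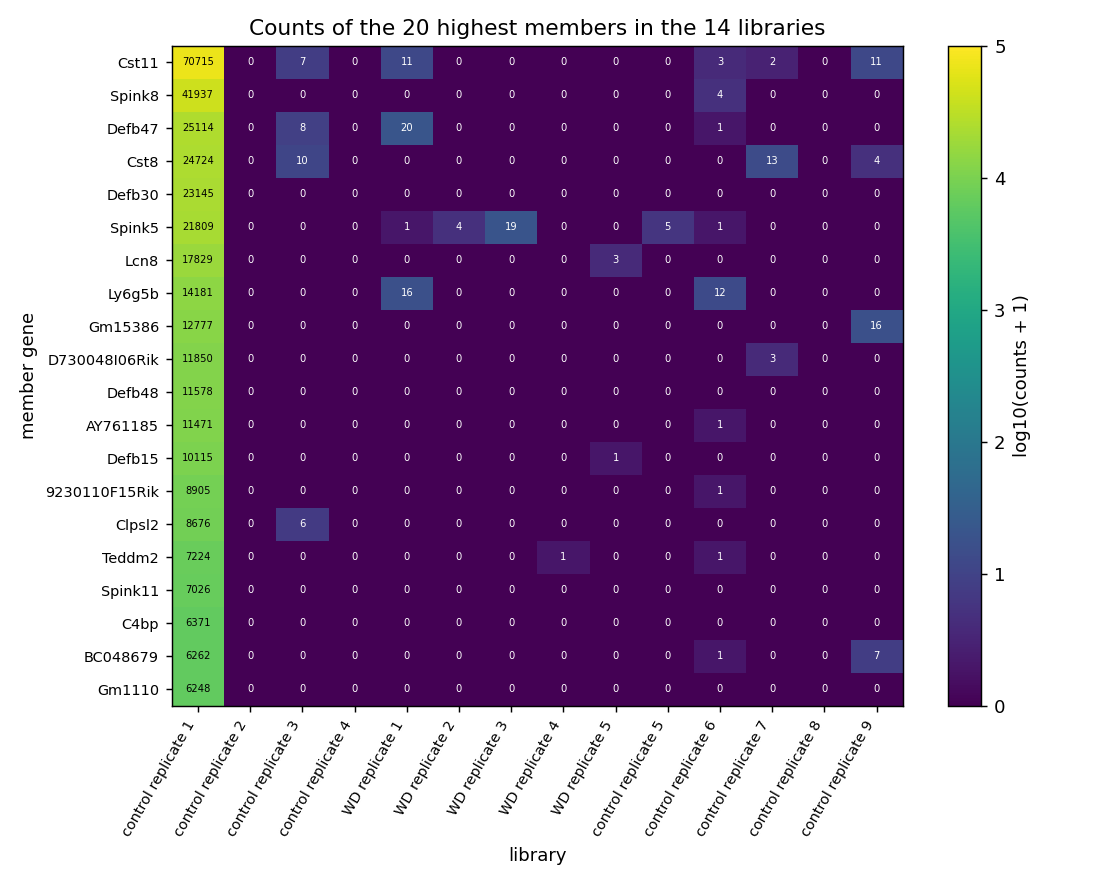
Counts of the 20 highest members (rows) in the 14 libraries (columns) are printed in the cells and coloured as log10(counts + 1). Control replicate 1 holds 6248 to 70715 counts of each gene, and no other library holds more than 20.

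Lipocalins named Lcn supplied 3 members of 10 genes, with 22691 counts (4.78%). Lcn8 had 17829 counts in control replicate 1, 3 in WD replicate 5 and 0 in the other 12. Lcn10 had 2926 counts there and 14 in control replicate 9, and Lcn12 had 1936 there, and both were at 0 everywhere else. They lay in a cluster of chromosome 2 (chr2:25490845-25703326) together with the lipocalin Obp2a (955 counts, chosen after its value was seen). Of the 10 lipocalin genes named Lcn, 7 had 500 counts or more in control replicate 1, and the other 3 were at 0 in all 14 libraries.

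Lcn5, a caput lipocalin, did not meet the rule. It had 121073 counts in control replicate 1, 0 in control replicates 2, 3 and 4, then 74, 0, 0, 2 and 0 in WD replicates 1 to 5, and 1, 8, 0, 2 and 22 in control replicates 5 to 9. The 74 counts of WD replicate 1 and the 22 of control replicate 9 lay above 20. Among the genes that missed the limit by least were Pacsin1 (515 counts in control replicate 1, at most 21 elsewhere), Lcn9 (25513, at most 22), Pantr1 (624, at most 22), Bcl2l15 (2800, at most 23) and Serinc2 (1645, at most 23). Genes of the same families with higher counts were thus left outside, and a ratio rule was added after these values were seen, asking for 500 counts and at least 50 times the highest other library.

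The ratio rule found 106 genes with 2499778 counts, 20.8% of control replicate 1 (Wilson 95% interval 20.76 to 20.80%). It held 79 of the 82 members (96.3%), which made up 74.5% of its genes, and 27 genes that the limit of 20 counts had not admitted. Ros1, Spem1 and Cblc were members but lay under the ratio. The 27 further genes carried 2027243 counts (16.9% of the library). Gpx5, a secreted glutathione peroxidase of the caput, had 1157646 counts in control replicate 1, 9.62% of the library, and a highest other count of 457, in WD replicate 5. Next came Spag11b of the defensins (217895 counts, at most 196 elsewhere), Lcn5, Adam7, an epididymal membrane protein of the ADAM family (108897, at most 145), and Defb20 (82375, at most 190).

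**Figure D3:**
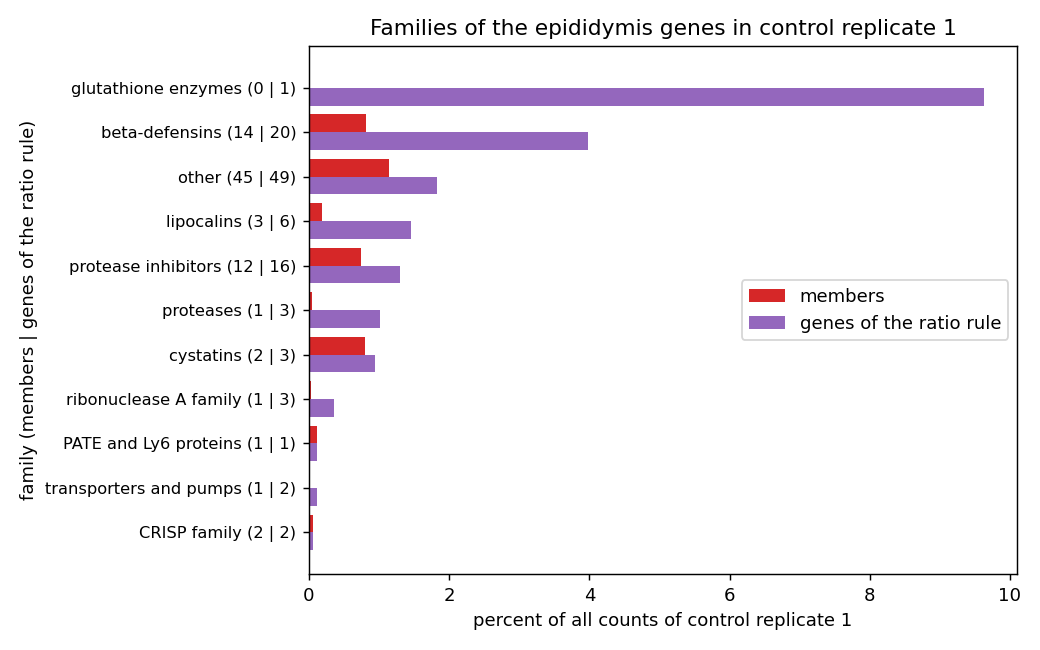
Bars give the percent of all counts of control replicate 1 held by each family, in red for the members and in purple for the genes of the ratio rule, with the numbers of genes in parentheses. The members miss the glutathione enzymes, where Gpx5 alone holds 9.62% of the library.

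Proteases were few among the members. Of 193 protease genes 130 were at 0 in control replicate 1, 17 had 500 counts or more there, and 1 was a member. This was Adam28, a membrane-bound metalloprotease, with 4679 counts in control replicate 1, at most 4 elsewhere and 7 in the other libraries together. The end of at least 1 of its transcripts resembled that of many other genes, and its count is uncertain for that reason. Adam7 and Ovch2, an ovochymase, were added by the ratio rule (8488 counts for Ovch2). The protease inhibitor family thus supplied 12 members and the protease family 1, with the 2 cystatins in neither count.

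The rest were mixed. Families were assigned by gene symbol, so a relative with another kind of symbol is not counted in its family. Of the 82 members, 45 had a symbol of none of the named families, the lipocalin Obp2a among them. Long noncoding RNAs were 2 of the members by annotation. Some of the rest were secreted or membrane proteins. Crisp1, which coats sperm in the duct, had 5194 counts in control replicate 1 and 0 in each of the other 13 libraries. Crisp4 had 1334 and 0, and these were the CRISP members. Ly6g5b, of the Ly6 superfamily, had 14181 counts in control replicate 1, 16 in WD replicate 1, 12 in control replicate 6 and 0 elsewhere. Rnase12, a ribonuclease A relative annotated as non-active, had 2878 counts and 0 elsewhere. C4bp, a complement inhibitor, had 6371 and 0.

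The remaining genes in the 20 highest were a colipase relative, a transmembrane gene and genes known by codes. Clpsl2, colipase-like, had 8676 counts in control replicate 1, 6 in control replicate 3 and 0 elsewhere. Teddm2, a transmembrane epididymal gene, had 7224 counts and 1 count each in WD replicate 4 and control replicate 6. Gm15386 had 12777 counts and 16 in control replicate 9. It overlaps Defb41, which had 1923 counts in control replicate 1 and 0 in control replicate 9. Most counts of Gm15386 were therefore not also counted at Defb41, though some reads may be shared. D730048I06Rik (11850 counts) and 9230110F15Rik (8905) lay in a cluster of 4 members on chromosome 9 (chr9:35776524-36128779), and the last 300 bases of 9230110F15Rik were 96.3% identical to those of its neighbour Gm5916. AY761185 (11471 counts) had 1 count elsewhere, BC048679 (6262) had 8 and Gm1110 (6248) had 0.

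Position and gene structure were not used by the rule. The members lay on 18 chromosomes, with 21 of 82 on chromosome 2 (25.6%, against 8.32% of all genes) and 0 on chromosome X, where the table has 977 genes. In 14 groups of neighbours no more than 500 kb apart lay 44 members, and 5 groups held 4 or more. The coding sequence was short, with a median of 154 codons in 78 members against 408 in 19901 genes. Of these members 50% had 150 codons or fewer, against 7.70% of all genes. Members had a median of 4 exons and all genes of 7. Neighbouring genes of a family can share descent and are not independent of each other, and no test was made.

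Since multiple alignments were counted, near-identical genes can share reads. For 7 members the last 300 bases of some transcript matched another gene at 95% identity or more over at least 75 bases. A further check found that 6 members overlapped another gene, 3 of them on the opposite strand. Wfdc6a (617 counts) and Wfdc6b (550) were 100% identical in those last bases and cannot be told apart. Bglap3 matched Bglap2 at 97%, yet Bglap2 had 7 counts in control replicate 1. No member had the same counts as another gene in all 14 libraries.

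The label was checked against marker lists, summed as CPM. The list of the initial segment and proximal caput stood at 14450.9 CPM in control replicate 1 and at 0 to 41.8 CPM in the other 13 libraries. The caput list stood at 120108 CPM against 0 to 49.4, and the list of products of any segment at 33069.9 against 0 to 40.8. All 30 genes of these lists had their highest count in control replicate 1, but 14 of them are members and their levels there are a selected value. With the members left out of the lists the sums were 4603.82 CPM against 0 to 40.3, 119573 against 0 to 49.4 and 28950.9 against 0 to 40.8. Most counts of the caput list came from Gpx5, at 96231.5 CPM. The general epithelial list, which holds no member, stood at 1250.89 CPM against 0 to 280.5, with 8 of 10 genes highest in control replicate 1 by CPM and 9 by count, Epcam (1418 counts, at most 339 elsewhere) and Cdh1 (2290, at most 280) among them.

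Other cells of the duct were less clear. Of the clear cell list, Atp6v1g3, a subunit of the proton pump, was a member with 1632 counts and 0 elsewhere. Its partner Atp6v1b1 had 64 counts and 0 elsewhere, and Foxi1, the transcription factor of these cells, had 121 and at most 16 elsewhere. Slc4a9 was at 0 in all libraries. The sum of the list was 235.4 CPM in control replicate 1 against 0 to 232.7 in the others, and 99.8 CPM with the member left out, within the others' range. Atp6v0d2 had 657 counts in control replicate 1 and reached 2936 in another library. Of the basal cell list, Krt5 (49 counts, at most 13 elsewhere) and Krt14 (153, at most 100) were highest in control replicate 1. Trp63 had 39 counts there and 53 in control replicate 3. Itga6, an integrin that fat tissue also expresses, had 788 counts there against 1356 to 2759, and the sum of the list was lowest in control replicate 1 (85.5 CPM against 109.9 to 210.4).

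**Figure D4:**
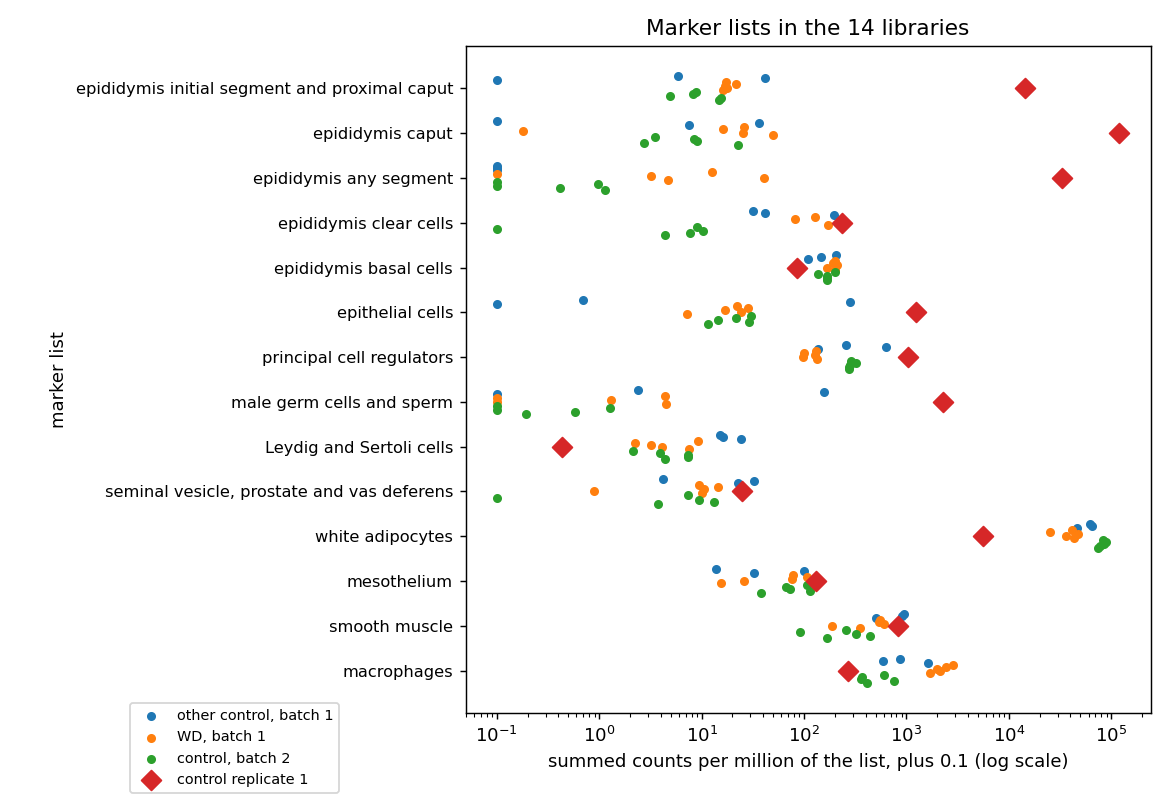
The horizontal log axis gives the summed CPM of each marker list plus 0.1, with control replicate 1 as a red diamond and the other libraries as points coloured by group. The 3 upper epididymis lists and the germ cell list stand far above the other libraries in control replicate 1, and the white adipocyte list stands below them.

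Germ cell transcripts were in the same library. The list of germ cells and sperm stood at 2295.88 CPM in control replicate 1, at 157.4 in control replicate 3 and at 0 to 4.43 in the other 12, and all 12 genes were highest in control replicate 1. Prm2, a protamine that packs sperm DNA, had 9808 counts in control replicate 1 and 225 in control replicate 3, the next highest. Of this list Odf1, of the sperm tail, and Prm3 were members, with 1597 and 615 counts. The somatic cells of the testis were not seen beside them. Insl3, of Leydig cells, and Amh and Fshr, of Sertoli cells, were at 0 in all libraries, and the list of both cell types stood at 0.333 CPM in control replicate 1 against 2.04 to 24.2 in the others. The list of seminal vesicle, prostate and vas deferens stood at 24.7 CPM against 0 to 32.2, within the range of the others. Within it Svs2 (122 counts, at most 81 elsewhere), Svs5 (85, at most 63), Svs4 (45, at most 20) and Akr1b7 (45, 0 elsewhere) were highest in control replicate 1, the other 7 genes were at 0 there, and Tgm4 reached 278 counts elsewhere.

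White adipocyte markers were lower in the library that held the members. Their sum was 5602.34 CPM in control replicate 1 and 25447.5 to 88468.1 CPM in the other 13, with a median of 61808.6, which was 11.03 times higher. Of the 12 genes 11 were lowest in control replicate 1, the exception being Cfd, the complement factor adipsin. Adipoq, the adipocyte hormone adiponectin, was at 678.5 CPM in control replicate 1 and 3503.2 to 17007.0 CPM elsewhere, and Plin1, which coats the lipid droplet, at 30.4 against 210.1 to 796.4. With the genes of the ratio rule removed from the totals the sum was 7071.86 CPM, and the lowest other library was 3.60 times higher. Markers were present, so the labelled tissue was detected. In bulk RNA fewer fat cells and less RNA per fat cell cannot be told apart. CPM is a share of all counts in a library, so these values alone do not show that the fat cells changed. The cause was not tested. Macrophage markers stood at 268.9 CPM against 362.3 to 2818.99, with only 3 of the 6 genes lowest in control replicate 1 by CPM.

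**Figure D5:**
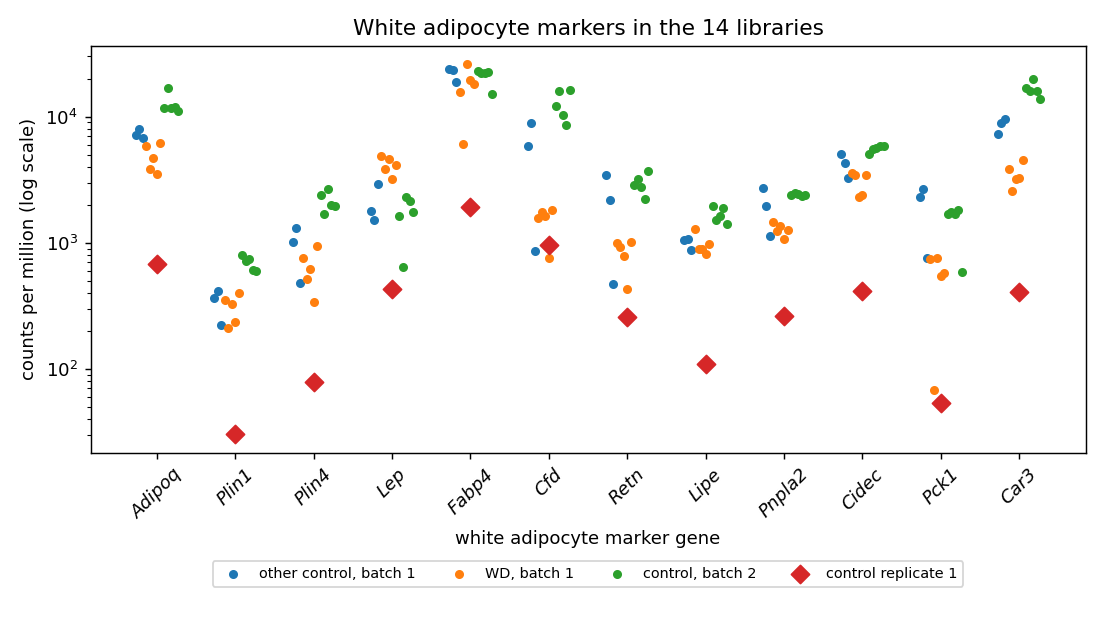
The vertical log axis gives the CPM of 12 white adipocyte marker genes, with control replicate 1 as a red diamond and the other 13 libraries as points coloured by group. Control replicate 1 is lowest for 11 of the 12 genes, and for Cfd the lowest is a WD library.

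The counts of members in the other libraries were few and were not spread evenly. The sum over the 82 members was 1, 127 and 0 counts in control replicates 2 to 4 of batch 1, then 75, 12, 41, 18 and 45 in WD replicates 1 to 5, and 5, 34, 27, 2 and 55 in control replicates 5 to 9. The 0 of control replicate 4 allows up to 0.243 CPM at its depth. On the log2(CPM + 1) scale the mean was 1.65 ± 1.27 (SD, n = 8) in batch 1 without control replicate 1 and 1.40 ± 1.05 (SD, n = 5) in batch 2. The means differed by 0.24, less than the SD of either group, and the groups overlapped. The rule capped each gene at 20 counts in these libraries, so the values are a description and no p is given.

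The make-up of these counts differed from that of control replicate 1. Among the genes of the ratio rule Gpx5 held 46.3% of the counts in control replicate 1. In the 10 other libraries with 100 or more such counts its share ran from 6.50% in control replicate 8 to 83.5% in WD replicate 2. In control replicate 4 it supplied 91 of 92 counts, and in WD replicate 3 a single count of 81. In WD replicate 4 Spag11b (196 counts), Defb20 (190), Gpx5 (165) and Teddm1a (135) were close to each other, whereas Gpx5 exceeded Teddm1a 1157646 to 31277 in control replicate 1. Control replicate 8 held 140 counts of Spink2 (chosen after its value was seen) among its 200. Among these 10, control replicate 6 and WD replicate 5, at 48.97% and 47.3%, had a Gpx5 share whose Wilson 95% interval held that of control replicate 1. In control replicate 6 the 34 member counts came from 18 members, 15 of them at 1 count.

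By summed member counts (127) control replicate 3 came next after control replicate 1, whereas by the genes of the ratio rule WD replicate 5 did, with 967 counts against 804 in control replicate 3. Control replicate 3 alone kept 41 genes from being members, where each of the other 12 libraries kept out at most 5. These 41 genes had 21 to 1223 counts in control replicate 3, and 22 of them were at 0 in the other 12 libraries. Cuzd1, Calml3 and Kcnk1 (named after their values were seen) were highest there, with 1223, 704 and 492 counts, against 16272, 815 and 3950 in control replicate 1. Of the 41, 5 were on the germ cell list, among them Tnp1, a transition protein of spermatids, with 298 counts in control replicate 3 and 1825 in control replicate 1. Pax8, a transcription factor of the male ducts, had 76 and 966 counts, and Adgrg2, a receptor of the efferent ducts and proximal epididymis, had 3678 and 8049. Yet Lcn5, Crisp1 and Lcn8 were at 0 in control replicate 3, Gpx5 was at 229 counts, and its white adipocyte sum was 64515 CPM, above that of the other batch 1 controls.

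The comparison of diets asks which genes of the fat differ between WD and control mice, and control replicate 1 is 1 of its 4 batch 1 controls. edgeR's low-count filter removed all 82 members, so 0 of them were among the 12157 genes tested. No gene passed an FDR of 0.05 in the edgeR quasi-likelihood test, where 628 had an unadjusted p under 0.05, while DESeq2 called 114 and limma-voom 0. With no filter all 82 members were lower in WD, with a median log2 difference (WD minus control) of -12.32, 81 had an unadjusted p under 0.05 in that direction, and 0 passed the FDR (lowest adjusted p = 0.35). Over all 16985 genes the share with an unadjusted p under 0.05 and lower in WD was 6.59%. The rule used control replicate 1, so these 81 are a description from which nothing is read. DESeq2 without the filter gave 0 of the 82 a p, since its outlier screen set them aside.

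Leaving out control replicate 1 removes the high counts that chose the members, but the counts that remain were capped at 20 by the rule, so the members' values stay a description. In that fit without a filter, 23 members still had a count in batch 1, 11 of them lower in WD, and 0 had an unadjusted p under 0.05 in either direction, where 7.00% of 16390 genes did. Nothing is read from that 0. With the filter, 0 genes passed the FDR either with or without control replicate 1, and 628 and 823 had an unadjusted p under 0.05. The log2 difference (WD minus control) of Adipoq was -0.15 with control replicate 1 and -0.51 without it, that of Car3, a carbonic anhydrase of fat cells, -0.83 and -1.21, and that of Lep, leptin, 1.38 and 1.10. None of these 3 genes passed the FDR in either fit (edgeR, adjusted p = 0.32 or above). All 12 white adipocyte genes had a lower log2 difference without control replicate 1, while the median over all genes tested moved from 0.03 to 0.13.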

How the data were processed

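The members and the gene lists were chosen with earlier results of these data known. The authors prepared QuantSeq libraries from Trizol-extracted RNA, aligned single-end reads with Bowtie2, used Bedtools to count reads per gene (reads aligned at several places included), and deposited these counts without normalization. Per the submitters' processing notes the build was mm10. Of the 80 members found by symbol in the GENCODE annotation of GRCm38, 80 overlapped the deposited positions. The table's log2 values, normalized by the authors, and its fold changes and p-values were not used.

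The ratio rule was added after the values were seen. Diets were compared within batch 1 with edgeR 4.0.16 (TMM, quasi-likelihood test, low-count filter, Benjamini-Hochberg FDR 0.05), and with DESeq2 1.42.0 and limma 3.58.1 as alternatives, in R 4.3.3. The labels number the libraries within each diet, and p-values measure the spread between these libraries. Summed member counts outside control replicate 1 are given as log2(CPM + 1). Their planned permutation test is not reported, since the rule capped these counts. Single-library shares were given Wilson 95% intervals (scipy 1.17.1). The edgeR fit was tested on simulated data. The genes named are Lcn5, Crisp1, the 20 highest members, the 3 highest of each family, the 3 lowest, 5 genes just outside each threshold and genes of the marker lists. Any other gene was named after its values were seen.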

Additional observations from a re-analysis of the deposited data

Results flagged for a closer look

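Sums were checked within each group of 4 or 5 libraries, 45 checks in all (Dixon's criterion at 95%, used here as a description). The 5 flagged were all of control replicate 1, which stood far from the rest of the batch 1 controls. Checks in the other groups do not hold this library and could not flag it, so 45 is not the base for these 5. The members summed to 39427.3 CPM there and to at most 11.4 CPM in the other 3, a gap that the rule itself made. The initial segment list was at 14450.9 against 41.8 CPM, the caput list at 120108 against 35.9 CPM and the list of products of any segment at 33069.9 against 0 CPM. These 3 lists hold 14 members, and no chance rate applies to them or to the members' sum. The germ cell list was at 2295.88 against 157.4 CPM, and at 2112.01 against 156.3 CPM without its 2 members. Chance alone picks out about 1 in 20 groups by this criterion. These sums come from the library that chose the members and are not independent of each other.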

How the results depend on the processing

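The rule's thresholds set how many genes are members. There were 248 with a minimum of 100 counts in control replicate 1, holding 4.22% of that library, and shares of 3.81% with a minimum of 1000, 2.23% with at most 5 counts elsewhere, 5.38% with at most 50 and 20.8% with the ratio rule. Leaving out each other library in turn gave 82 to 123 genes and 3.94 to 4.86%, both upper values without control replicate 3. The batch difference in member counts was -0.16 among controls only and -0.053 to 0.551 with each library left out, negative without control replicate 3 or control replicate 8. Genes called between diets were 114 with DESeq2, 67 with all 9 controls, and 0 to 48 with each library left out, the 48 without control replicate 4. With no filter they were 238 with DESeq2, 58 with all 9 controls and 4 without control replicate 1. No member was called in these fits, but in most of them no member had a tested value, so this says nothing about stability. With the replicate number as a block 0 genes and 0 members were called, and same-numbered libraries correlated at 0.02 to 0.11. The same-numbered WD library was the best match for control replicates 2 and 4 but not for control replicates 1 and 3. So few libraries cannot settle whether the numbers pair them. The white adipocyte sum of control replicate 1 was 7279 CPM with TMM factors, 5832 without the members and 7072 without the genes of the ratio rule. The cause of these shifts was not tested.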
